A study of Mus musculus with 8 samples.

Results

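Erythroid commitment was followed through 10 genes in non-transformed blood stem and progenitor cells taken from mice with BCR-ABL-driven leukemia and from control mice. The genes were 4 transcription regulators (Gata1, Klf1, Gfi1b and Zfpm1), 2 receptors (Epor and Tfrc) and 4 genes of haem synthesis and of the maturing red cell (Alas2, Car1, Car2 and Ermap). They were chosen by symbol with earlier results of these data known, as were the gene lists used below. All 10 were among the 18193 genes that had a probe set with 1 listed gene symbol on an Affymetrix mouse expression array. Where a gene had several such probe sets, the one with the highest mean over the 8 arrays was used. Zfpm1 had 2 probe sets, Tfrc had 3, and the other members had 1 each. In the mouse assembly GRCm38.p6, Gata1 and Alas2 lie on chromosome X, Klf1 and Zfpm1 on chromosome 8, Car1 and Car2 on chromosome 3, Gfi1b on chromosome 2, Ermap on chromosome 4, Epor on chromosome 9 and Tfrc on chromosome 16.

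Marrow cells carrying CD45.2 from BCR-ABL x SCL-tTA transgenic mice were mixed with an equal part of CD45.1+ marrow and given to CD45.1+ hosts, and the transgene was switched on by withdrawing tetracycline water. The SCL-tTA driver directs expression to stem and progenitor cells. The transgene came with the CD45.2+ marrow, so it was not carried by the CD45.1+ cells that were measured. After 4 weeks, CD45.1+ cells were sorted as LT-HSC (CD150+ CD48- KSL cells, called HSC here) or as the whole KSL gate (Kit+, Sca-1+, lineage-negative), which contains the HSC. The 4 groups were leukemic HSC, normal HSC, leukemic KSL and normal KSL, with 2 arrays each, and the normal mice received marrow without the BCR-ABL transgene. The titles of both leukemic KSL arrays hold the wording for normal as well as for leukemic mice, and these arrays were assigned by their disease-state label and the end of the title. Every leukemic KSL value rests on that assignment. The free-text descriptions of all 8 samples speak of embryos, which does not match sorted marrow, and were not used. The labels do not say that arrays of a group came from separate animals, so the p-values measure only the spread between these samples. All values are the authors' log2 intensities, in which 1 unit is a 2-fold difference. In sorted bulk samples, fewer cells of a type and less RNA per cell cannot be told apart.

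Red cell commitment starts in progenitors that switch on the zinc-finger factor Gata1, which works with its cofactor Zfpm1 (Fog1) and with Gfi1b and Klf1 to turn on erythroid genes and to shut off other programmes. Erythropoietin acts through Epor to keep committed progenitors alive. Tfrc, the transferrin receptor, brings in the iron for haem, and Alas2 is the first enzyme of erythroid haem synthesis. Car1 and Car2 are carbonic anhydrases of the red cell, and Ermap is an erythroid membrane protein of the immunoglobulin superfamily. Many erythroid promoters hold WGATAR sites that GATA factors can bind and CACCC boxes that Klf1-type factors can bind.

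Because Gata1 is itself one of the genes, promoter sequence was searched for the letters of such sites. RefSeq promoters of build GRCm38.p6, each running from 250 bases before to 50 bases after a start, were found for 8 of the 10 members in 9 windows. Car1 and Car2 were not matched. The words searched, on both strands, were AGATAA and AGATAG together with the forms that begin with a T, which are TGATAA and likewise TGATAG. At least 1 occurred in 5 of the 8 members, and in 29.8% of 32851 promoters of the same length. The 5 windows are shown since they are where the motif lies, with the match in capitals and the sequence 5′ to 3′ along the gene's strand. Klf1 is at chr8:84901732-84902031 (+), Gfi1b at chr2:28621933-28622232 (-), Epor at chr9:21963527-21963826 (-), Alas2 at chrX:150547167-150547466 (+) and Ermap at chr4:119189946-119190245 (-).
Klf1: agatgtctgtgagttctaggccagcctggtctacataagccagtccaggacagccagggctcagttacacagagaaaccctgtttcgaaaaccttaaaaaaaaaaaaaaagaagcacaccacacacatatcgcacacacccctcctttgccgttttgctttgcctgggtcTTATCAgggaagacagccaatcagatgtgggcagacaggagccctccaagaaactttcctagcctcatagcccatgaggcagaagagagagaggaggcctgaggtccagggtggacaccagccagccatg
Gfi1b: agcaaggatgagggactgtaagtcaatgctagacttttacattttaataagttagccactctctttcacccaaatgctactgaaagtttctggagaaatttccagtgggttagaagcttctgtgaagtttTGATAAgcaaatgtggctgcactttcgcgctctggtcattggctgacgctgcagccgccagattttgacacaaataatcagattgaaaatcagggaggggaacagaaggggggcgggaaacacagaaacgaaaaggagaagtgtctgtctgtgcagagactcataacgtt
Epor: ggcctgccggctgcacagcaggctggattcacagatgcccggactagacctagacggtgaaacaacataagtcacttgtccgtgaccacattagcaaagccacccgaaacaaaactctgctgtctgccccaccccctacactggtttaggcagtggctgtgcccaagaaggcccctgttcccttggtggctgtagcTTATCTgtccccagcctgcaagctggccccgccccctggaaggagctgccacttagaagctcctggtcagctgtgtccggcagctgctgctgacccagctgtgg
Alas2: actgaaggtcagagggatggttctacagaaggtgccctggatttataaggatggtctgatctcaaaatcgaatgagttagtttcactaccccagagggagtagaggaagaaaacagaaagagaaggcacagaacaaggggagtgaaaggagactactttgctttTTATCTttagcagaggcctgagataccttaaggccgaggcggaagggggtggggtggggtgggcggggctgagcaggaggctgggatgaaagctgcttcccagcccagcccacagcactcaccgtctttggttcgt
Ermap: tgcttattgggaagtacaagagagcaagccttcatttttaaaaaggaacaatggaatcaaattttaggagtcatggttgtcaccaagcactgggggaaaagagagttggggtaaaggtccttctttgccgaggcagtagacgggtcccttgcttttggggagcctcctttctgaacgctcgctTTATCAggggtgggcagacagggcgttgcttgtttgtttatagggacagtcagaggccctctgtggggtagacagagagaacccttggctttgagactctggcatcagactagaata
The match begins 80 bases before the start in Klf1, 120 in Gfi1b, 54 in Epor, 86 in Alas2 and 67 in Ermap. These letters did not occur in the windows of Gata1, Zfpm1 or Tfrc. CCNCNCCC, the CACCC-type word on either strand, occurred in 6 of the 8 members (Gata1, Gfi1b, Zfpm1, Epor, Tfrc and Alas2) and in 49.5% of all promoters. The bare letters CACCC also lie in the windows of Klf1 and, on the other strand, Ermap, which this longer word does not match. It also matches words without CACCC, such as CCCCGCCC in Epor. In the 5 sequences shown, no match of one motif overlapped a match of the other.

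The 8 arrays were alike in scale, with medians between 5.74 and 5.86, and 14.9 to 15.8% of probe sets sat at the floor of 3.32 that the deposited values have. No member was at the floor on any array. Over all genes, replicate arrays correlated at r = 0.957 in leukemic HSC, 0.965 in normal HSC, 0.994 in leukemic KSL and 0.988 in normal KSL. The first array of each normal group stood apart. Xist, the RNA of the inactive X chromosome, was 5.79 on normal HSC array 1 and 3.67 on normal KSL array 1, against 11.63 to 11.99 on the other 6 arrays. Eif2s3y, a Y-linked gene, was 9.23 and 9.35 on those 2 arrays and 4.29 to 6.24 on the others, a male pattern that the leukemic arrays did not have. These were also the arrays on which most erythroid members were highest within their group, so sex and erythroid level cannot be told apart between the normal replicates. The typical gap between replicates of a normal group was larger for the members than for other genes. The median absolute gap was 0.34 for the members and 0.29 for all genes in leukemic HSC, 0.76 and 0.28 in normal HSC, 0.29 and 0.13 in leukemic KSL, and 0.71 and 0.16 in normal KSL.

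**Figure D1:**
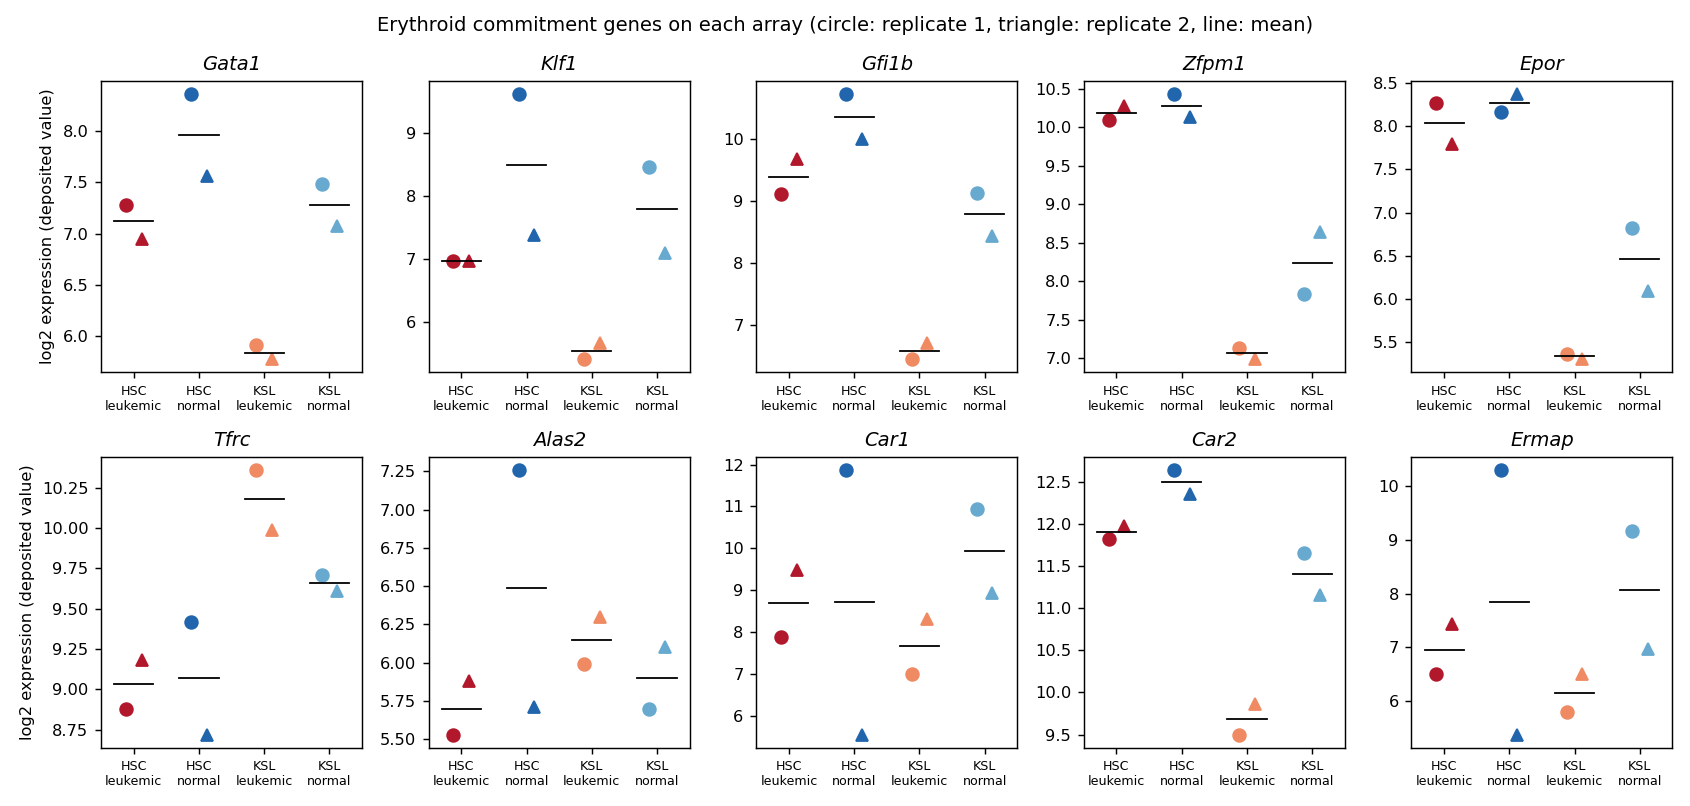
Log2 intensity of each of the 10 genes (1 panel a gene) on each of the 8 arrays, with leukemic arrays left of normal arrays within HSC and within KSL; circles are array 1, triangles array 2 and lines the group means, and each panel has its own y axis. Car1 spans 5.57 to 11.87 and Ermap 5.38 to 10.30 within the normal HSC pair, whereas Gata1, Gfi1b and Car2 are low on both leukemic KSL arrays.

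In the KSL gate, the regulators of the erythroid programme were lower on both leukemic arrays than on either normal array. Gfi1b, a repressor that erythroid and megakaryocytic cells need, showed it with the widest margin of the 4, and Klf1, Gata1 and Zfpm1 followed. None of the 4 passed an adjusted p of 0.05. Gata1, the master regulator, read 5.91 and 5.78 on the leukemic KSL arrays and 7.48 and 7.08 on the normal KSL arrays, with no overlap. Its level was 2.71-fold lower (log2 fold change -1.44 ± 0.32, SE, n = 2 arrays a group; limma adjusted p = 0.358, unadjusted 0.00722). Gfi1b read 6.45 and 6.70 on leukemic KSL arrays, against 9.13 and 8.43 on normal KSL arrays. Every leukemic value lay below every normal value, and the fitted level was 4.62-fold lower (-2.21 ± 0.39, limma adjusted p = 0.25, unadjusted 0.0029).

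Klf1, which switches on the adult globin and red cell membrane genes, was 5.41 and 5.66 in leukemic KSL cells and 8.47 and 7.10 in normal KSL cells. The groups did not overlap, but the normal arrays lay 1.37 apart. The fitted difference was -2.25 ± 0.86, which is 4.77-fold lower (limma adjusted p = 0.634). It was -1.57 without normal KSL array 1, the male-pattern array, and -2.94 without normal KSL array 2. Zfpm1, the Gata1 cofactor, was 7.13 and 6.99 in leukemic KSL cells, against 7.83 and 8.64 in normal KSL cells. It was 2.25-fold lower (-1.17 ± 0.29, limma adjusted p = 0.431, unadjusted 0.0117), and here the second normal array was the higher one. The gene's other probe set gave 6.35 and 6.55 in leukemic and 6.79 and 7.35 in normal KSL cells, also without overlap.

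In HSC the same 4 genes were closer between leukemic and normal mice. Gata1 read 7.28 and 6.95 in leukemic HSC, against 8.36 and 7.56 in normal HSC, a fitted difference of -0.84 ± 0.32 (limma adjusted p = 0.358). Klf1 was 6.96 on both leukemic HSC arrays and 9.62 and 7.38 on the normal ones. The leukemic values were below both normal ones, and most of the fitted -1.54 ± 0.86 came from the first normal array (limma adjusted p = 0.525). Without the 2 male-pattern arrays, the difference of Klf1 was -0.42 and that of Gata1 was -0.44. Gfi1b was 9.11 and 9.67 in leukemic HSC and 10.72 and 9.995 in normal HSC (-0.97 ± 0.39, limma adjusted p = 0.384). Its groups did not overlap, and without the male-pattern arrays the difference was -0.61. Zfpm1 was level within the spread: 10.10 and 10.28 in leukemic HSC, against 10.43 and 10.13 in normal HSC (-0.09 ± 0.29, limma adjusted p = 0.993). The sign of that difference turned with its second probe set, which read 9.01 and 9.68 in leukemic and 8.85 and 8.76 in normal HSC.

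The 2 receptors lay on opposite sides of the normal values in leukemic KSL cells. Epor read 5.37 and 5.31 on leukemic KSL arrays and 6.82 and 6.10 on normal KSL arrays. Both leukemic values were lower and lay within 0.06 of each other, and the fitted level was 2.18-fold lower (-1.12 ± 0.29, limma adjusted p = 0.449, unadjusted 0.0131). In HSC, Epor was 8.27 and 7.80 in leukemic and 8.17 and 8.37 in normal mice, which overlapped (-0.23 ± 0.29, limma adjusted p = 0.811).

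Tfrc, which dividing cells of every lineage use for iron uptake, was the member that was higher without overlap in leukemic KSL cells. Its values were 10.36 and 9.99 there, against 9.71 and 9.61 in normal KSL cells (0.52 ± 0.28, limma adjusted p = 0.828). The other 2 probe sets of the gene overlapped between leukemic and normal KSL arrays: 1 read 9.28 and 8.85 in leukemic and 8.85 and 9.07 in normal cells, and the other 9.45 and 9.31 in leukemic and 9.16 and 9.40 in normal cells. In HSC, Tfrc read 8.88 and 9.18 in leukemic and 9.42 and 8.72 in normal mice, with the leukemic values inside the normal range (-0.04 ± 0.28, limma adjusted p = 1). Of the other Tfrc probe sets, 1 read 8.84 and 8.39 in leukemic and 8.21 and 7.52 in normal HSC, so it was higher without overlap. The other read 8.55 and 8.95 in leukemic and 9.17 and 8.39 in normal HSC, which overlapped. The array also carries control probe sets along the Tfrc transcript. The 3′ minus the 5′ control was -0.36 and -0.75 in leukemic HSC and -2.04 and -1.74 in normal HSC, and -1.65 and -1.68 in leukemic KSL and -1.28 and -1.58 in normal KSL. The Gapdh 3′ minus 5′ difference was 1.19 and 1.03 in leukemic HSC, 0.78 and 0.83 in normal HSC, 0.73 and 0.75 in leukemic KSL and 0.89 and 0.74 in normal KSL. The part of these transcript-end differences in the member values was not tested.

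Among the red cell products, Car2 behaved like the regulators. It read 9.50 and 9.86 on leukemic KSL arrays and 11.66 and 11.16 on normal KSL arrays. Leukemic and normal values were 1.29 apart at their nearest, and the level was 3.31-fold lower (-1.73 ± 0.23, limma adjusted p = 0.215, unadjusted 0.000913), which was the smallest unadjusted p of the 10 genes. In HSC, Car2 was 11.82 and 11.98 in leukemic and 12.64 and 12.35 in normal mice (-0.60 ± 0.23, limma adjusted p = 0.37). The HSC groups did not overlap either.

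Car1 and Ermap differed most between replicates, with normal array 1 far above array 2 in both gates. Car1 was 7.02 and 8.32 in leukemic KSL cells, against 10.94 and 8.95 in normal KSL cells. The groups did not overlap, but the spread made the difference -2.28 ± 2.27 (limma adjusted p = 1). It was -1.28 without normal KSL array 1 and -3.27 without array 2. In HSC, Car1 was 7.89 and 9.49 in leukemic mice, against 11.87 and 5.57 in normal mice. The 2 normal HSC arrays held both the highest and the lowest Car1 value of the series, 6.30 apart. The fitted difference of -0.03 ± 2.27 (limma adjusted p = 1) became 3.12 without the male-pattern arrays. Ermap was 5.80 and 6.51 in leukemic KSL cells and 9.17 and 6.97 in normal KSL cells (-1.92 ± 1.81, limma adjusted p = 1). Without normal KSL array 1 the difference was -0.82, and without array 2 it was -3.02. In HSC it was 6.50 and 7.43 in leukemic mice and 10.30 and 5.38 in normal mice (-0.88 ± 1.81, limma adjusted p = 0.926), with the leukemic values between the normal ones. Without the male-pattern arrays the HSC difference of Ermap was 1.58.

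Alas2 overlapped between leukemic and normal cells in both gates. It was 5.99 and 6.30 in leukemic KSL cells and 5.70 and 6.10 in normal KSL cells, which overlapped (0.25 ± 0.55, limma adjusted p = 1). In HSC it was 5.53 and 5.88 in leukemic mice, against 7.26 and 5.71 in normal mice (-0.78 ± 0.55, limma adjusted p = 0.611). One normal HSC array was high, and without the male-pattern arrays the difference was -0.01.

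Counted over the 10 genes, none passed an adjusted p of 0.05 between leukemic and normal cells in HSC or in KSL. Of all genes, 0.0989% (18 genes) passed in HSC and 0.044% (8 genes) in KSL, so passing genes were rare in both. At an unadjusted p under 0.05, 1 member (Gata1) was lower in leukemic HSC, beside 7.23% of all genes, and 5 members (Gata1, Gfi1b, Zfpm1, Epor and Car2) were lower in leukemic KSL, beside 4.45% of all genes. Both leukemic values lay below both normal values for 4 members in HSC (Gata1, Klf1, Gfi1b and Car2), beside 16.7% of all genes. In KSL this held for 8 members, all but Tfrc and Alas2, beside 24.1% of all genes. It held in both gates for the 4 members named for HSC, beside 5.9% of all genes. The median log2 difference of the 10 members was -0.69 in HSC and -1.58 in KSL, against 0.00 over all genes in each. Leaving out the male-pattern arrays gave 5 members lower without overlap in HSC, where 30.4% of genes then met that rule, and 8 in KSL, where 38.5% did. Without normal HSC array 2 the HSC count was 9, beside 31.4% of genes.

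**Figure D2:**
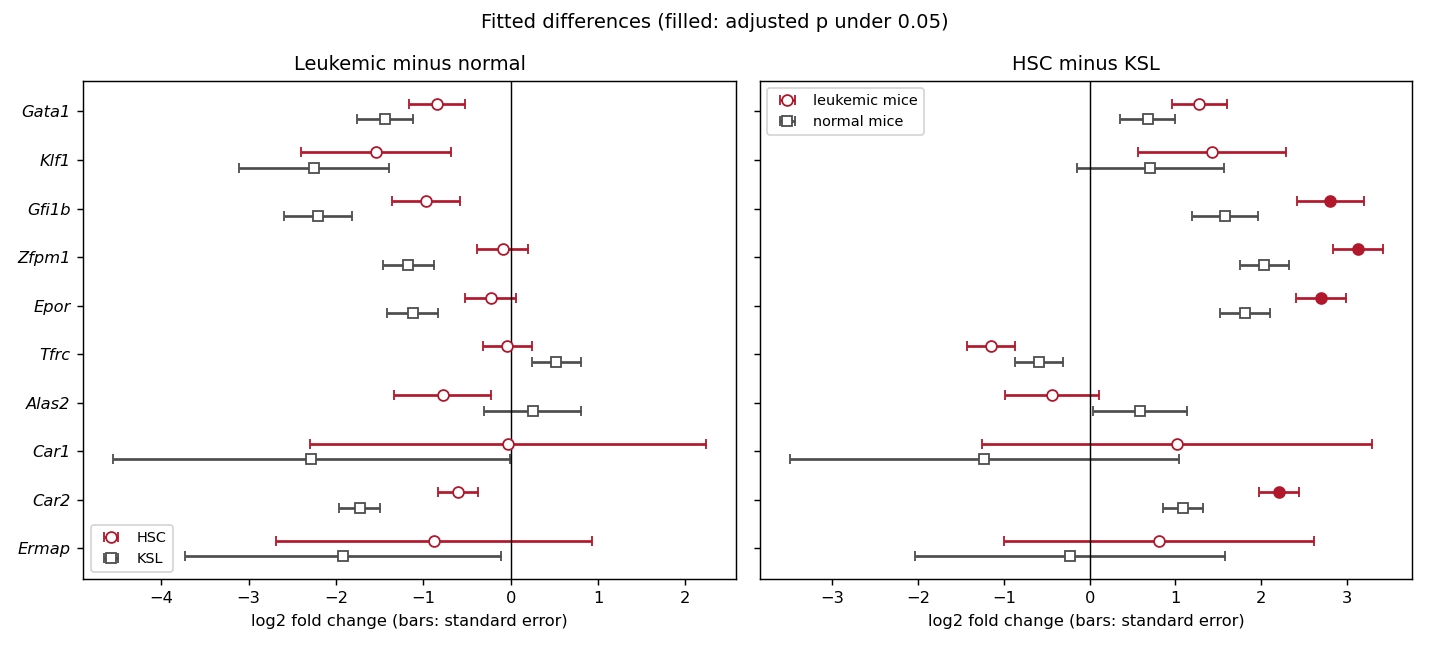
Log2 difference of each of the 10 genes with its standard error (bars) from the limma fit, filled where the adjusted p was under 0.05, leukemic minus normal in the left panel and HSC minus KSL in the right panel. The 4 regulators, Epor, Car1, Car2 and Ermap lie below 0 in KSL, from -1.12 to -2.28, and Car1 and Ermap have the widest bars.

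Averaged over both gates, 6 members were lower in leukemic cells at an unadjusted p under 0.05, beside 7.26% of all genes, and none passed the adjusted threshold, beside 0.0824% of all genes. The average differences were -1.14 ± 0.22 for Gata1, -1.59 ± 0.27 for Gfi1b and -1.16 ± 0.16 for Car2, with limma adjusted p-values of 0.188, 0.156 and 0.131. Whether the difference itself was unequal between the gates was tested as an interaction term, in which a positive value means a less negative or more positive difference in HSC than in KSL. The term was 1.08 ± 0.41 for Zfpm1 (unadjusted p = 0.0499) and 1.13 ± 0.33 for Car2 (unadjusted p = 0.0204), the 2 members below 0.05 without adjustment, beside 4.81% of all genes on the positive side. Their limma adjusted p-values were 0.55 and 0.438, and no member passed, beside 0.0055% (1 gene, Slc16a12) of all genes. The differences in HSC and in KSL were thus not shown to be unequal for any member.

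Most members varied together from array to array. The median deviation of the 10 genes from their own means was 0.00 and 0.39 on the leukemic HSC arrays, against 1.40 and 0.35 on the normal HSC arrays. It was -1.70 and -1.39 on the leukemic KSL arrays, against 0.32 and -0.15 on the normal KSL arrays, while that of all genes was between -0.01 and 0.00 on every array. The lowest medians were thus the leukemic KSL arrays, and the highest was normal HSC array 1. On that array 8 of the 10 genes had their highest value, beside 15.9% of the genes above the floor. Epor was highest on normal HSC array 2 and Tfrc on leukemic KSL array 1. The 3 members that were lowest on normal HSC array 2 were Tfrc, Car1 and Ermap, and Alas2 was lowest on leukemic HSC array 1.

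**Figure D3:**
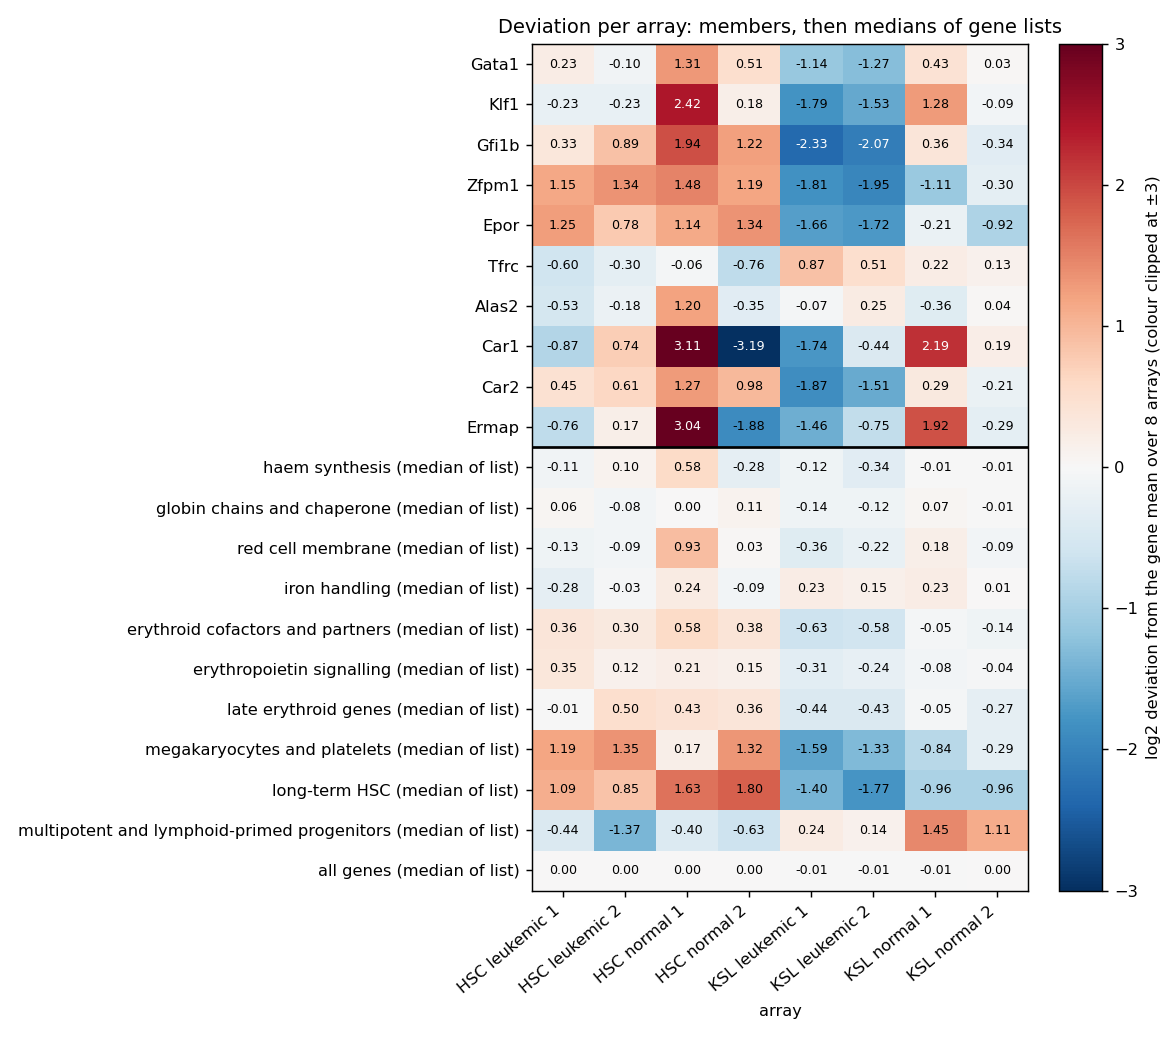
Heat map of the deviation (log2) of each of the 10 genes from its own mean over the 8 arrays, by array, with leukemic left of normal within each gate; below the line are medians of gene lists and of all genes. The leukemic KSL columns are below 0 for the regulators, down to -2.33 for Gfi1b, and Car1 is 3.11 on normal HSC array 1 and -3.19 on array 2.

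In leukemic mice, the HSC gate was above the whole KSL gate for all 4 regulators, Epor and Car2. Of these, 4 members were higher in HSC and passed an adjusted p of 0.05, beside 3.13% of all genes. Zfpm1 was 8.73-fold higher in leukemic HSC than in leukemic KSL (3.13 ± 0.29, limma adjusted p = 0.0154), Gfi1b 7.02-fold (2.81 ± 0.39, 0.0329), Epor 6.49-fold (2.70 ± 0.29, 0.0195) and Car2 4.64-fold (2.21 ± 0.23, 0.0187). For 6 members, the 4 regulators, Epor and Car2, both HSC values lay above both KSL values, beside 28.2% of all genes. Gata1 (1.28 ± 0.32, limma adjusted p = 0.102) and Klf1 (1.43 ± 0.86, 0.414) did not pass. Tfrc was lower in HSC than in KSL of leukemic mice (-1.15 ± 0.28, limma adjusted p = 0.0988), also short of the threshold. The leukemic KSL arrays that were low for these genes enter this comparison as well as the one with normal KSL. The 4 calls rested on the spread shared with the other groups. In a fit on only the groups compared 1 member passed, beside 94 of all genes, against 1067 of all genes in the main fit. With the replicate number as a block 2 members passed, beside 401 of all genes. With arrays left out, fewer members passed under some settings, but at least 1 group then holds a single array.

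In normal mice no member passed between HSC and KSL, beside 1.8% of all genes. Zfpm1 came nearest at 2.04 ± 0.29 (limma adjusted p = 0.0586), with Epor at 1.81 ± 0.29 (0.0695) and Car2 at 1.09 ± 0.23 (0.118). At an unadjusted p under 0.05, 4 members were higher in normal HSC, beside 8.86% of all genes. For 5 members the normal HSC values lay above both normal KSL values, beside 24.2% of all genes. The HSC to KSL gap was 1.58 ± 0.39 for Gfi1b and 0.68 ± 0.32 for Gata1 in normal mice (limma adjusted p = 0.154 and 0.399). The difference between leukemic and normal mice in these gaps is the interaction given above, which passed for no member.

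In all, 7 lists of related erythroid genes were read beside the members, and none of their genes passed between leukemic and normal cells in either gate. Of 16 cofactors and partners of the erythroid factors, 14 were lower without overlap in leukemic KSL and 4 in leukemic HSC, beside 24.1% and 16.7% of all genes, with medians of -0.51 and -0.20. The HSC count was near that share. Cbfa2t3 (Eto2), a corepressor of the Tal1 and Gata1 complex, was 8.73 and 9.11 in leukemic KSL and 10.15 and 10.16 in normal KSL (-1.24 ± 0.19, limma adjusted p = 0.225). Lmo2, the bridging protein of that complex, differed by -0.34 ± 0.06 in KSL (limma adjusted p = 0.265). Lyl1, a relative of Tal1, was 8.73 and 8.90 in leukemic HSC and 10.60 and 9.99 in normal HSC (-1.48 ± 0.23, limma adjusted p = 0.141). Nfe2, a globin gene activator, differed by -0.63 ± 0.14 in HSC (limma adjusted p = 0.195).

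Of 13 late erythroid genes, all were lower in sign in leukemic KSL, 10 of them without overlap, beside 24.1% of all genes, and the median was -0.53. In HSC 1 was lower without overlap, beside 16.7% of all genes, and the median was -0.13. Hemgn, a nuclear protein of blood progenitors and erythroblasts, was 7.08 and 7.12 in leukemic KSL, against 8.93 and 8.27 in normal KSL (-1.50 ± 0.40, limma adjusted p = 0.473). Of 15 red cell membrane genes, 8 were lower without overlap in leukemic KSL (median -0.26) and 4 in leukemic HSC (median -0.56). Aqp1, the red cell water channel, was 5.59 and 6.56 in leukemic KSL and 8.55 and 7.25 in normal KSL (-1.83 ± 0.70, limma adjusted p = 0.634). Icam4, the Landsteiner-Wiener protein, was 6.98 and 7.14 in leukemic HSC, against 7.93 and 7.79 in normal HSC (-0.80 ± 0.13, limma adjusted p = 0.141). Gypc, glycophorin C, differed by -1.25 ± 0.32 in HSC (limma adjusted p = 0.229).

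The haem and iron genes were less uniform, and their counts were nearer to the shares over all genes, 24.1% in KSL and 16.7% in HSC. Of 10 haem synthesis genes, 4 were lower without overlap in leukemic KSL (median -0.15) and 2 in leukemic HSC (median -0.11). Alad, the second enzyme of the pathway, was 9.23 and 8.91 in leukemic HSC and 9.92 and 9.78 in normal HSC (-0.77 ± 0.13, limma adjusted p = 0.147). Flvcr1, a haem exporter, was higher by 0.30 ± 0.07 in HSC and by 0.28 ± 0.07 in KSL (limma adjusted p = 0.214 and 0.436). Of 9 iron handling genes, 3 were lower without overlap in each gate, with medians of 0.04 in KSL and -0.18 in HSC. Tfr2, which pairs with Epor in erythroid cells, differed by -0.54 ± 0.15 in KSL and -0.50 ± 0.15 in HSC (limma adjusted p = 0.511 and 0.283). Slc25a37, the mitochondrial iron importer, differed by -1.41 ± 0.41 in HSC (limma adjusted p = 0.264), and Hfe, which binds Tfrc, by 1.16 ± 0.69 in KSL (limma adjusted p = 0.879).

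Of 10 erythropoietin signalling genes, 5 were lower without overlap in leukemic KSL (median -0.26) and 2 in leukemic HSC (median -0.07), read against the same shares over all genes. Stat5b, a transcription factor below the receptor, differed by -0.37 ± 0.10 in KSL (limma adjusted p = 0.468). Pim1 and Sh2b3, a kinase that Stat5 induces and a brake on Jak2, were higher by 0.63 ± 0.16 and 0.58 ± 0.17 in leukemic HSC (limma adjusted p = 0.23 and 0.262). Of 6 measured globin genes (10 were listed), 2 were lower without overlap in KSL and 1 in HSC. Their medians were -0.19 and -0.07, and the counts were also near those shares. The adult beta globin Hbb-b2 was 5.25 and 6.08 in leukemic KSL and 6.79 and 5.89 in normal KSL, which overlapped. The alpha globin Hba-a2 was between 11.05 and 11.32 on all 8 arrays, whereas the alpha globin Hba-a1 was between 4.54 and 5.11. These probe sets thus disagreed on the level of alpha globin, and the reason was not tested. Tal1, Rhd and Tubb1 each stood in 2 of these lists.

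**Figure D4:**
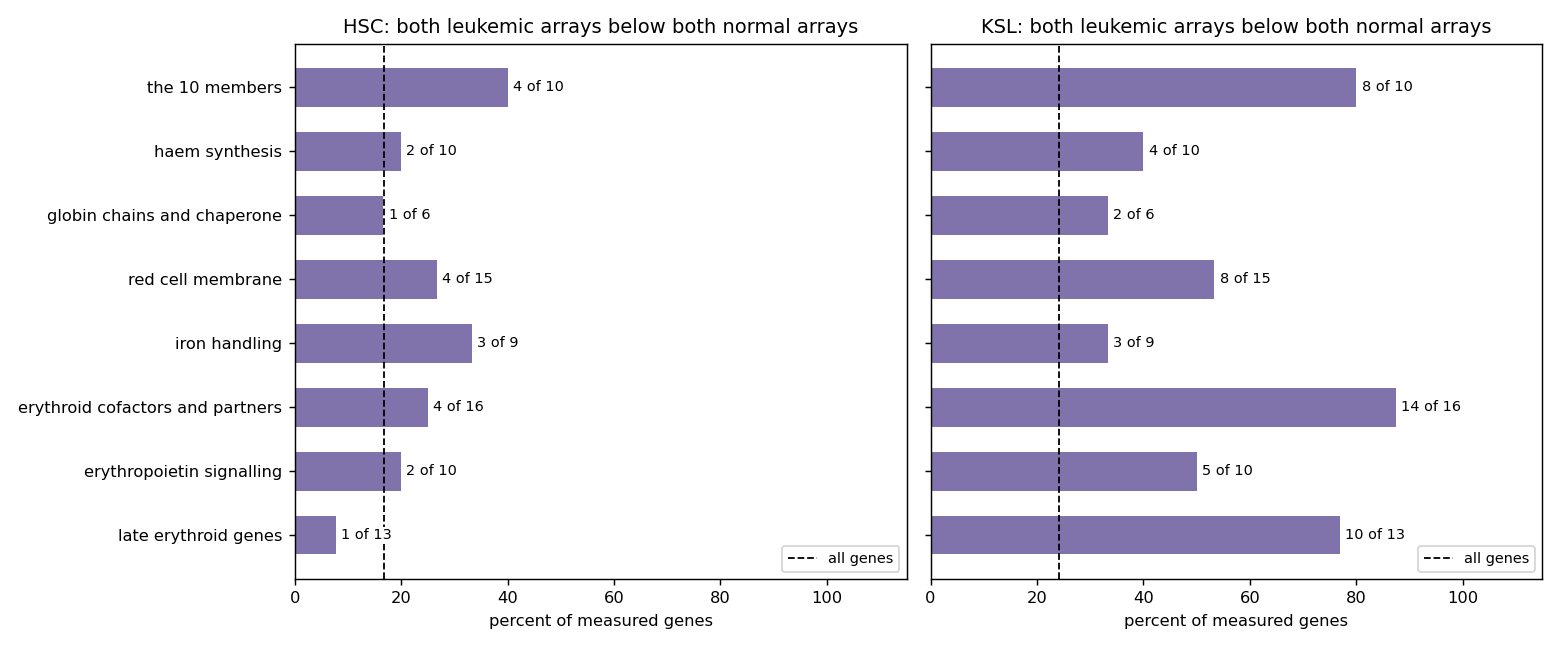
Share of the measured genes of the 10 members and of each erythroid list whose leukemic values both lay below both normal values, in HSC and in KSL, with the counts printed beside the bars and the share over all genes as a dashed line for each gate (16.7% in HSC and 24.1% in KSL). The cofactor list reaches 14 of 16 and the late erythroid list 10 of 13 in KSL.

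Between HSC and KSL, some of these genes did pass. In leukemic mice 8 of the 16 cofactors rose and 2 (Spi1 and Myb) fell in HSC relative to KSL, beside 3.13% and 2.74% of all genes. Gata2, the stem cell GATA factor, was 11.88 and 11.54 in leukemic HSC and 9.11 and 9.19 in leukemic KSL (2.56 ± 0.21, limma adjusted p = 0.012). Sox6 and Bcl11a, which silence embryonic globin genes, were higher by 2.71 ± 0.43 and 1.85 ± 0.19 (limma adjusted p = 0.0407 and 0.0187). Spi1 (PU.1), the myeloid factor that opposes Gata1, was lower by 1.80 on the log2 scale (limma adjusted p = 0.045). Of the late erythroid list, Hemgn (2.76 ± 0.40) and Tal1 (1.73 ± 0.26) were higher in HSC than in KSL of leukemic mice (limma adjusted p = 0.0349 and 0.0371). Tal1 is a transcription factor that is also among the 8 cofactors counted above. Tfr2 of the iron list was higher too (1.20 ± 0.15, limma adjusted p = 0.0274). In normal mice 4 listed genes were higher in HSC and passed, beside 0.803% of all genes. They were Icam4 (1.25 ± 0.13), Tfr2 (1.16 ± 0.15), Nfe2 (1.05 ± 0.14) and Lmo2 (0.61 ± 0.06), with limma adjusted p-values between 0.0301 and 0.0486. These calls depended on how the fit was made. Of the 12 listed genes that passed in leukemic mice, counted once each, 3 passed with the replicate number as a block (Bcl11a, Gata2 and Lmo2). There 401 of all genes passed, against 1067 without the block. None of the 12 passed in a fit on only the groups compared, where 94 of all genes did. In normal mice no listed gene passed in either fit, where 19 and 0 of all genes did, against 328. Leaving out arrays also changed which listed genes passed, but at least 1 group then holds a single array.

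Several red cell genes were seen on normal HSC array 1 in particular, and were picked after their values were known. Rhag, the Rh-associated glycoprotein, read 5.97 on that array and 3.32, the floor, on the other 7. Kel, the Kell blood group protein, was 3.80 and 4.13 in leukemic HSC and 6.86 and 3.71 in normal HSC, and 3.76 and 3.56 in leukemic KSL and 6.21 and 6.27 in normal KSL. In KSL both normal arrays were high. Ank1, the red cell ankyrin, was 5.996 and 5.23 in leukemic HSC, against 8.90 and 5.33 in normal HSC, and 5.42 and 5.96 in leukemic KSL, against 7.05 and 6.22 in normal KSL. Slc4a1 (band 3), a late product, was between 4.68 and 5.22 on all arrays.

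Markers of other cells were read beside the members. The lineage-negative Kit+ Sca-1+ sort is meant to remove mature neutrophils, monocytes, B, T and NK cells, whereas megakaryocyte-primed, multipotent and long-term stem cells fall inside the gates. The summed linear intensity of 12 megakaryocyte and platelet genes was 11100 and 12000 in leukemic HSC and 6370 and 11500 in normal HSC, and 1300 and 1590 in leukemic KSL and 2400 and 4000 in normal KSL. Gata1, Gfi1b and Zfpm1 are used by megakaryocytes too. This list was lower in KSL (median -0.70, 7 of 12 without overlap, beside 24.1% of all genes). In HSC the median of this list was 0.43. There 3 of 12 were higher and 1 was lower without overlap, beside 16% and 16.7% of all genes. Pf4, the defining gene of the list, was 9.22 and 9.73 in leukemic KSL and 10.48 and 11.28 in normal KSL, and Gp6 was at the floor on all arrays. The passing gene of the list was Mmrn1, a platelet and endothelial granule protein named after its values were seen, at 4.85 and 4.90 in leukemic KSL and 6.34 and 6.55 in normal KSL (limma adjusted p = 0.0426). The 11 long-term HSC genes summed to 7330 and 5990 in leukemic HSC, 9200 and 9290 in normal HSC, 1420 and 1300 in leukemic KSL and 1990 and 1930 in normal KSL. Of these, 6 were lower and 0 higher without overlap in leukemic HSC (median -0.6), beside 16.7% and 16% of all genes. In leukemic KSL 5 were lower and 1 higher without overlap (median -0.51), beside 24.1% and 20.5% of all genes. The 8 multipotent and lymphoid-primed progenitor genes summed to 3910 and 3530 in leukemic KSL, against 8180 and 6200 in normal KSL, with 7 of 8 lower without overlap, beside 24.1% of all genes.

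The granulocyte-monocyte progenitor list (9 genes) summed to 47300 and 43900 in leukemic KSL, against 33500 and 38200 in normal KSL, and to 5720 and 8070 in leukemic HSC, against 2860 and 3360 in normal HSC. Mpo, its defining gene, was 13.23 and 13.31 in leukemic KSL and 13.23 and 13.13 in normal KSL. The neutrophil and monocyte list (12 genes) ran from 647 on normal HSC array 2 to 19600 on leukemic HSC array 1. In each gate 11 of the 12 were higher in leukemic cells and 1 was lower, with medians of 2.16 in HSC and 0.71 in KSL. Without overlap, 7 were higher in HSC and 5 in KSL, beside 16% and 20.5% of all genes. S100a8, a gene of this list, was 7.93 on normal HSC array 2 and 10.65 to 13.11 on the other 7 arrays. The 7 mast cell and basophil genes summed to 3090 and 3150 in leukemic KSL and 1630 and 1620 in normal KSL, all 7 higher without overlap, beside 20.5% of all genes. Cma1, a mast cell protease, was 8.62 and 8.89 in leukemic KSL and 5.997 and 5.61 in normal KSL. The 8 B cell genes summed to 823 and 1080 in leukemic HSC and 448 and 957 in normal HSC, with 4 higher without overlap, beside 16% of all genes, and a median of 0.36. The 6 T and NK cell genes summed to 1100 and 1090 in leukemic HSC and 613 and 978 in normal HSC, with 2 higher without overlap and a median of 0.45. In KSL the medians of these lists were -0.04 and -0.72. The B cell gene Ms4a1 and the NK cell gene Ncr1 were at the floor on all arrays, and Cd3e was 5.55 and 5.39 in leukemic KSL and 6.77 and 6.86 in normal KSL. The part of these lists in the member values was not tested.

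The sort genes CD150 and Cd48 and the stem cell gene Procr separated the HSC arrays from the KSL arrays. Slamf1 (CD150) was 8.23 to 9.36 on HSC arrays and 5.27 to 7.06 on KSL arrays, Procr was 8.63 to 10.18 and 6.29 to 7.07, and Cd48 was 6.19 to 8.12 and 10.17 to 10.44. Kit was between 9.16 and 10.80 on all arrays. Flt3, a gene of the multipotent and lymphoid-primed part of the gate, was 8.78 and 8.88 in leukemic KSL, against 10.57 and 9.999 in normal KSL. In HSC it was 8.63 and 6.98 in leukemic mice and 8.81 and 6.88 in normal mice, so the first HSC array of each group read close to the leukemic KSL arrays.

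The genes whose profile over the 8 arrays was most like that of Gata1, among 10915 genes above the 40th percentile of mean level, were Add1 (r = 0.987), Oas3 (0.982), Sik1 (0.979), Pdk2 (0.978) and 2610035D17Rik (0.977). Those most like Klf1 were Klf3 (r = 0.978), Slc38a5 (0.951), Pklr (0.951), Tgfa (0.950) and Gata1 itself (0.943). Pklr, which encodes the red cell pyruvate kinase, was 7.44 and 7.23 in leukemic HSC and 10.21 and 7.38 in normal HSC, and 6.23 and 6.51 in leukemic KSL and 8.24 and 6.92 in normal KSL. These coefficients describe 8 arrays that form 4 groups and share their normal array 1 pattern.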

How the data were processed

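Expression was measured on 8 Affymetrix mouse arrays of sorted CD45.1+ cells, 2 for each of 4 groups. The authors deposited log2 intensity values for 45101 probe sets, made with RMA per the submitters' processing notes; the version is not given in the sources used here, and the values have a floor at 3.32 (10 on the linear scale). The extract and labelling descriptions name different amplification methods, so the method is not settled. Platform annotation gave 1 symbol to 34945 probe sets, several to 932 and none to 9160, beside 64 controls; 34741 matched a RefSeq gene. From these, 1 probe set per gene (the highest mean) left 18193 genes. limma 3.58.1 in R 4.3.3 fitted 1 mean per group over all 8 arrays, with Benjamini-Hochberg adjustment over all genes and a threshold of 0.05; the test was checked on simulated data. It had 4 residual and 0.67 prior degrees of freedom. Precision is limited by the number of arrays. Linear sums are 2 to the power of the deposited log2 values.

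The 10 members and the gene lists were chosen with earlier results of these data known. Members were always named; from each list, up to 4 passing genes with the largest difference were named per comparison, or else the 2 with the smallest p, and from marker lists the defining and sort genes. Not every gene this rule selects is printed. Alternatives were a replicate block, other scalings, filters on dim genes, the mean of all probe sets, fits on fewer groups, array weights, and leaving out arrays. Over all genes, deviations of same-number arrays correlated between -0.04 and 0.09 from group to group, which does not exclude pairing. The male-pattern arrays of normal HSC and normal KSL carry the same replicate number. Whether they share a source was not tested, and the main fit treated all arrays as unpaired.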

Additional observations from a re-analysis of the deposited data

How the results depend on the processing

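Of the member differences recomputed under the alternatives, 937 kept their direction and side of the threshold, 10 passed only under the alternative, 22 passed no longer and 31 changed sign. In KSL, leukemic against normal, all 170 kept both, and no member passed under any alternative. Many of these 170 could not change direction. The replicate block, the filters on dim genes, array weights and leaving out HSC arrays did not alter the KSL group means. The same applies to part of the 937. With 2 arrays a group, the count of passing genes depended on most settings. With the replicate number as a block, the counts were 0 in HSC (18 without it), 0 in KSL (8) and 0 for the average (15). They were 0 for the interaction (1), 19 for HSC against KSL in normal mice (328) and 401 in leukemic mice (1067). Of those 401, 2 were members (4 without the block). With arrays shifted to a common median, KSL had 1, the average 0, the interaction 0 and normal HSC against KSL 495, with 2 members. Quantile normalization gave 6 in HSC, 3 in KSL and 3 for the interaction. Without the lowest 40% of genes, KSL had 2, the average 0, the interaction 2 and normal HSC against KSL 513, with 2 members. When genes that sat at the floor anywhere were dropped, these were 2, 0, 0 and 546, with 2 members. The mean of all probe sets gave 11 in HSC and 7 for the interaction, and 1 member in normal HSC against KSL. Fits on only the groups compared gave 0 in HSC, 0 in KSL, 0 in normal and 94 in leukemic HSC against KSL, with 1 member. Without the male-pattern arrays the counts were 0 in HSC, 0 in KSL, 0 for the average, 0 for the interaction, 4 in normal and 94 in leukemic HSC against KSL, with 1 member. Array weights gave 2 in HSC, 125 in KSL, 5 for the average and 640 for leukemic HSC against KSL.

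Leaving out 1 array at a time gave 0 to 257 genes in HSC, 0 to 6 in KSL, 0 to 144 for the average, 0 to 68 for the interaction, 20 to 463 for normal and 0 to 1316 for leukemic HSC against KSL. Fewer members passed in leukemic HSC against KSL under some of these settings. Members lower without overlap in HSC were 5 to 9 with 1 HSC array left out, beside 30.4 to 31.7% of all genes. With all arrays they were 4, beside 16.7%. The rule is easier to meet with fewer arrays, so the higher counts do not show a stronger difference. For the member differences that changed sign when 1 array was left out, the ranges in HSC, leukemic minus normal, were -0.24 to 0.06 for Zfpm1, -0.47 to 0.00 for Epor, -0.39 to 0.31 for Tfrc, -3.18 to 3.12 for Car1 and -3.34 to 1.58 for Ermap. For the average they were -0.66 to 0.12 for Alas2 and -2.73 to 0.42 for Car1. For the interaction they were -0.40 to 1.84 for Klf1, -0.90 to 5.40 for Car1 and -1.42 to 3.50 for Ermap. For normal HSC against KSL they were -0.41 to 1.83 for Klf1, -0.19 to 1.36 for Alas2, -4.38 to 1.93 for Car1 and -2.69 to 2.23 for Ermap. Other sign changes in HSC were Zfpm1 at 0.23 and Tfrc at 0.23 with the mean of all probe sets, and Tfrc at 0.01 and Car1 at 0.02 with the common median. Without the male-pattern arrays, Zfpm1 was 0.06, Tfrc 0.31, Car1 3.12 and Ermap 1.58 in HSC, Alas2 was 0.02, Car1 0.92 and Ermap 0.38 for the average, and Alas2 was -0.39 for normal HSC against KSL. The counts without overlap and the counts of listed genes under other fits were added after seeing the data. The cause of these changes was not tested.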
